A study of Homo sapiens and Mus musculus with 19 samples.

Results

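Promoter-divergent noncoding RNAs are transcripts that start close to the start site of a protein-coding gene and are read from the other strand, away from that gene. In the chromatin-associated RNA (caRNA) of mouse embryonic stem cells (mESC) they were taken as long noncoding RNA (lncRNA) genes whose annotated 5′ end lay within 2 kb of the 5′ end of a protein-coding gene on the opposite strand, with no overlap between the heads of the genes and at least 10 counts in at least 3 of 6 libraries. Of 747 lncRNA genes with this arrangement, 607 met the count rule, out of 6581 lncRNA genes that met it anywhere and 54446 genes in the tables. They lay beside 606 protein-coding partners, since 1 partner had 2 of them. The annotation called 221 of them lincRNA, 177 antisense, 124 processed transcript and 85 bidirectional promoter lncRNA, and 343 carried a provisional Gm number in place of a name.

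The comparison was between mESC transfected with a control siRNA (siControl, 3 libraries) and mESC in which the RNA 5-methylcytosine methyltransferase gene Nsun2 was knocked down (siNsun2, 3 libraries). All cells were kept with LIF and the inhibitors CHIR99021 and PD0325901, were passaged off feeder cells, and were transfected with RNAiMAX. The labels call the cells mESC with no strain or line name, and the methods allow individual siRNAs or a pool without saying which was used for Nsun2. A further mESC library, labelled Pscp1 WT, entered no comparison, and libraries from a human leukaemia line were not used here.

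Divergent transcription arises because most active mammalian promoters lie in regions depleted of nucleosomes in which RNA polymerase II can start in either direction. The upstream product is usually terminated early at poly(A) sites and removed by the nuclear RNA exosome, whereas U1 snRNP protects the coding transcript from early termination. Divergent RNAs that are long or stable enough to be annotated are often found beside genes for developmental transcription factors, and many of them stay on chromatin.

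First-exon sequences of 4 of these RNAs are shown, a choice that covers the most abundant, a strong increase, a decrease and a rise against the partner. Each is the start of the annotated transcript in mm10, read 5′ to 3′, and stretches that match CNGGG, a sequence context known for NSUN2 methylation, are in capitals. Gm10069 starts 80 bases from Fkbp4 and its first 150 bases lie at chr6:128438757-128438906 on the plus strand. Gm26633 starts 160 bases from Acan, and its first exon of 93 bases lies at chr7:79053231-79053323 on the minus strand. The first exon of 4930558J18Rik, 76 bases from 1700066M21Rik, has 140 bases at chr1:57377405-57377544 on the minus strand and is shown for the decreases. Gm12694, 103 bases from Mysm1, has a first exon of 93 bases at chr4:94979203-94979295 on the plus strand.
Gm10069: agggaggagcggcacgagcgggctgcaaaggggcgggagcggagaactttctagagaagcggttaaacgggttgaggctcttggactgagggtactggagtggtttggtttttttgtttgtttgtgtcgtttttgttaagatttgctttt
Gm26633: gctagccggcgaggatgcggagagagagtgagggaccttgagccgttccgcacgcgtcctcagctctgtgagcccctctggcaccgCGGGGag
4930558J18Rik: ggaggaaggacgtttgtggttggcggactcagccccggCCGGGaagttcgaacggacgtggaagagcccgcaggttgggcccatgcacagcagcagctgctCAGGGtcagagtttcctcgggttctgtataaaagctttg
Gm12694: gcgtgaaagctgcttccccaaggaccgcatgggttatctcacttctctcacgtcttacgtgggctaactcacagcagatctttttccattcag
CNGGG occurred at 1 place in Gm26633, at 2 in 4930558J18Rik and at 0 in the stretches of Gm10069 and Gm12694. Over all members with an annotated transcript of at least 200 bases (605 of 607), 74.4% held CNGGG on the transcript strand in the first 200 bases, overlapping matches included, against 76.2% of 18548 protein-coding genes and 55.4% of 2981 lncRNAs that lay more than 5 kb from any protein-coding gene (intergenic lncRNAs). The median GC content of the same window was 55% in the members, 59.5% in protein-coding genes and 48.5% in intergenic lncRNAs. A CpG-rich window, here at least 55% GC with an observed over expected CpG ratio of at least 0.6, was found in 34.0% of members, 49.5% of protein-coding genes and 3.52% of intergenic lncRNAs. The poly(A) signal AATAAA stood in the last 50 bases of 39.2%, 50.9% and 33.4%, respectively. A match describes letters and not a methylated site.

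The 5′ ends of ncRNA and partner were 1 to 1993 bases apart, with a median of 155, and 506 of the 607 pairs were within 500 bases. The ncRNA genes spanned 0.359 to 474 kb with a median of 7.86 kb, and 48 had a single annotated exon. Another gene on the same strand overlapped 73 of them, which lowers their counts because reads shared by genes on a strand were set aside. At the edge of the count rule, the third-highest count was exactly 10 in 7 members and 9 in 9 of the 140 genes left out. All but 8 members had at least 10 counts in a library of each group: 7 passed through siNsun2 libraries alone and 1 through siControl libraries alone.

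Gene counts were 62989044 to 66832780 per siControl library and 58078323 to 59411087 per siNsun2 library. Nsun2 caRNA was 133, 126 and 130 CPM (counts scaled for library size) in siControl and 98.8, 106 and 103 CPM in siNsun2, a fall by 0.34 on the log2 scale (SE 0.03, adjusted p = 2.78e-16 by the edgeR quasi-likelihood test). Most abundant genes fell as well. Of the 7740 tested genes at 16 CPM or more, 70.5% were lower by the same test, with a median log2 change of -0.20. How much of the fall of Nsun2 was its own was not tested. Stem cell markers summed to 1942 to 1981 CPM in siControl and 1493 to 1535 CPM in siNsun2, with 9 of 10 above 1 CPM and Sox2 at 0 in all 6 libraries. Sox2 lies inside Sox2ot on the same strand, where these tables hold almost no counts. Markers of feeder fibroblasts (33.8 to 36.1 against 28.6 to 31.0 CPM, 7 genes), primitive endoderm (16.7 to 17.2 against 12.9 to 13.7 CPM, 5 genes), trophoblast (17.6 to 21.4 against 26.3 to 27.2 CPM, 4 genes) and differentiating cells (3.85 to 5.39 against 6.04 to 6.55 CPM, 4 genes) were low, none of these genes was at 0 in all libraries, and their part in the results was not tested. In these bulk libraries fewer cells of a type and less RNA per cell cannot be told apart. Olfactory receptor genes, which stem cells do not use, served as a measure of the level at which silent DNA is counted. Their mean was 0.0172 to 0.0197 counts per kb, scaled to CPM of all read records, in siControl and 0.0266 to 0.0297 in siNsun2, and reads outside annotated genes rose with them, from 19.6 to 20.2% to 28.9 to 29.9% of records. Whether the labels' replicates came from separate cultures is not stated, so the p-values measure the spread between these libraries.

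In siControl the divergent ncRNAs were thinly covered next to their partners. The median level was 0.110 CPM per kb of gene span for the ncRNAs, 1.02 for the partners and 0.0396 for 2995 intergenic lncRNAs with the same count rule. Taken pair by pair, the median ncRNA stood at 21.8% of its partner's level per kb, and 117 of the 607 were above their partner per kb, counting 19 whose partner had no counts in siControl. The level per kb of ncRNA and partner was correlated over the 588 pairs with a counted partner (Spearman's rho 0.55, a description over genes that share libraries and, in part, sequence composition). As a multiple of the olfactory receptor rate, the median ncRNA was at 4.06 in siControl, the median partner at 37.3 and the median intergenic lncRNA at 1.44. Averaged over the 6 libraries, 136 ncRNAs were at 10 times that rate or more, 203 between 3 and 10 times, and 268 under 3 times.

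Counts were concentrated in few ncRNAs. The mean CPM ran from 0.125 to 120 with a median of 1.08, 315 ncRNAs reached 1 CPM and 43 reached 10 CPM, and the 10 most abundant took 30.8% of all counts in the group. The coefficient of variation between the 3 libraries of a group had a median of 19.1% in siControl and 17.7% in siNsun2. For the 240 ncRNAs with a mean of at least 100 counts it was 10.8% and 9.0%, and for the others 28.7% and 26.9%.

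Summed over all members, divergent ncRNAs took a larger share of the caRNA counts after Nsun2 knockdown. The share was 0.221%, 0.225% and 0.223% of gene counts in siControl and 0.258%, 0.266% and 0.258% in siNsun2, so that the groups did not overlap. The difference was 0.0377 percentage points (exact permutation test, two-sided p = 0.1, the smallest value that 3 libraries against 3 allow). Their partners' share went the other way, from 4.33 ± 0.03% to 4.24 ± 0.01% (SD, n = 3 each, exact permutation p = 0.1). The log2 ratio of summed ncRNA counts to summed partner counts was -4.28, -4.27 and -4.28 in siControl and -4.04, -3.99 and -4.04 in siNsun2, a difference of 0.26 (exact permutation p = 0.1). With the olfactory receptor rate times the gene span taken off each gene, the differences were 0.0143 percentage points and 0.16 on the log2 scale. Among the 87 ncRNAs at 10 times that rate or more in every library they were 0.00162 percentage points (exact permutation p = 0.2) and 0.07 (exact permutation p = 0.1).

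**Figure D1:**
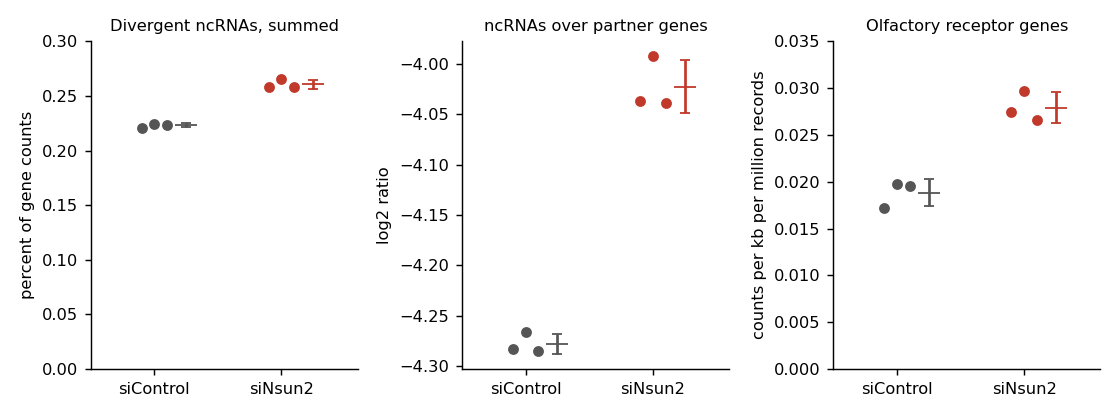
Summed divergent ncRNAs as a percent of gene counts, log2 ratio of summed ncRNA to summed partner counts, and mean olfactory receptor CPM of all read records per kb, with 1 point per library and the mean ± SD beside each group of 3. All 3 siNsun2 libraries lie above all 3 siControl libraries in each panel, with shares of 0.258 to 0.266% against 0.221 to 0.225%.

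Gene by gene, 604 of the 607 ncRNAs could be tested. Of these, 133 were higher and 32 lower in siNsun2 (adjusted p under 0.05 over 27603 genes), or 22.0% and 5.30%, against 25.8% of all genes called higher and 24.3% called lower. Scaling to total gene counts gave 185 and 7 in place of 133 and 32. Under that scaling 37.1% of all genes were called higher and 9.40% lower. In 149 of the 165 called ncRNAs (90.3%) the 2 groups of libraries did not overlap, against 93.7% of all 13844 called genes. The median log2 change was 0.27 for the ncRNAs, 0.14 for all genes, -0.16 for 565 tested partners and 0.66 for 2950 tested intergenic lncRNAs, of which 45.8% were higher and 3.08% lower. Scaling to total gene counts moved the median of all genes to 0.32 and that of the ncRNAs to 0.44, so that the ncRNAs stood 0.13 above all genes in either case. With no filter on low counts the order turned, at 0.30 for all genes and 0.25 for the ncRNAs.

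The calls were then set against how far an ncRNA stood above silent DNA. Of 266 tested ncRNAs at under 3 times the olfactory receptor rate, 102 were higher and 1 lower, with a median log2 change of 0.57; all genes in that range had a median of 0.69, with 48.6% called higher. Between 3 and 10 times, 26 of 202 were higher and 3 lower, with a median of 0.15 against 0.15 for all genes, of which 20.4% were higher and 7.89% lower. At 10 times or more, 5 of 136 were higher and 28 lower (3.68% and 20.6%), against 4.74% and 56.2% of all genes and 3.23% and 70.5% of partners in that range. The median there was -0.12 for the ncRNAs, -0.19 for all genes and -0.21 for the partners. The 577 olfactory receptor genes that could be tested had a median of 0.66 themselves, with 96 called higher and 3 lower. The level used for these ranges includes the siNsun2 libraries, and the part of the silent-DNA rate in the calls was not tested beyond these counts. Among ncRNAs with a mean of at least 100 counts, 79 of 240 were higher and 29 lower (32.9% and 12.1%), beside 26% and 41% of the 16181 genes at that depth.

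**Figure D2:**
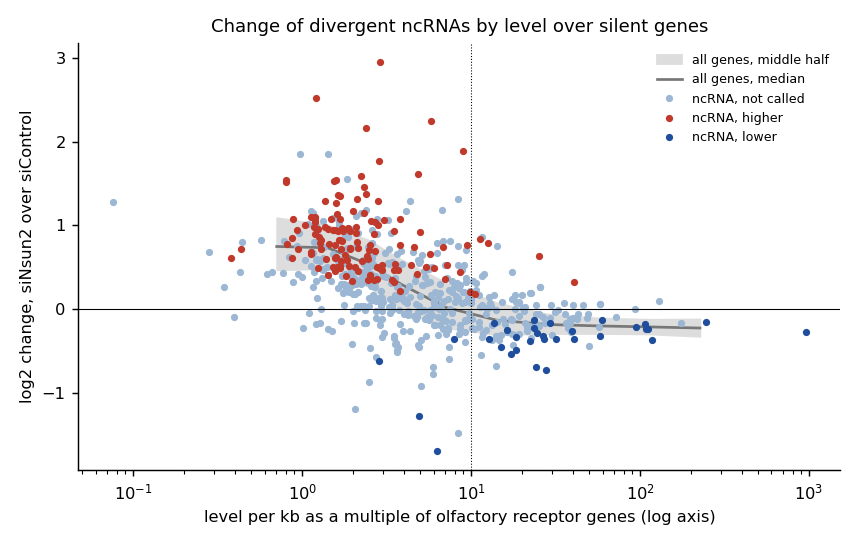
Log2 change in siNsun2 over siControl for each tested divergent ncRNA (points) against its level per kb as a multiple of olfactory receptor genes (mean of 6 libraries, log axis), with the median and quartiles of all genes as line and band and a dotted line at 10 times. Called increases lie mostly at the left, 102 of 133 under 3 times, and called decreases at the right, 28 of 32 at 10 times or more.

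Of the 10 most abundant divergent ncRNAs, 8 were lower in siNsun2, 1 was higher and 1 was not called; of all genes at 16 CPM or more, 70.5% were lower and 11.2% higher. Gm10069 (chromosome 6, 128438757 to 128503281, plus strand), beside the HSP90 co-chaperone gene Fkbp4, was at 135, 129 and 135 CPM in siControl and 107, 104 and 108 CPM in siNsun2. Its log2 change was -0.33 (SE 0.03, adjusted p = 5.81e-16), and that of Fkbp4 was -0.32. Snhg1, a host gene of small nucleolar RNAs beside the amino acid transporter subunit gene Slc3a2, was at 97.8, 99.9 and 104 CPM against 84.8, 81.3 and 84.1 CPM. It fell by 0.27 (SE 0.03, adjusted p = 4.21e-11) and Slc3a2 by 0.42; the 8 genes that overlap Snhg1 on its own strand take part of its reads out of the count. The groups of libraries did not overlap for either ncRNA. 5530601H04Rik, beside Pbdc1, fell from 62.5 ± 1.12 to 49.0 ± 0.39 CPM (log2 change -0.35) and 2500002B13Rik, beside the Sin3 complex subunit gene Sap30, from 81.5 ± 0.662 to 69.2 ± 3.56 CPM (-0.24).

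Smaller falls that passed the test were seen in E130307A14Rik beside Rev3l, which encodes the catalytic subunit of DNA polymerase zeta (-0.13), in Platr20 beside Gm12569 (-0.13), in 4632427E13Rik beside the Golgi GTPase gene Rab30 (-0.16) and in Gm11457 beside Ube2c, the E2 enzyme of the anaphase-promoting complex (-0.18). Under scaling to total gene counts these 4 changed sign, to 0.053, 0.052, 0.026 and 0.0050, and none passed the test, and 2500002B13Rik lost its call at -0.055 (adjusted p = 0.209), whereas Gm10069, Snhg1 and 5530601H04Rik kept theirs. The fall of Platr20 was also not called without siControl replicate 3 (-0.10, adjusted p = 0.0690) and that of Gm11457 not without siNsun2 replicate 2 (-0.09, adjusted p = 0.0957). 5031425E22Rik, beside the SET-domain gene Kmt2e, was at 85.6 ± 2.90 and 82.4 ± 3.60 CPM with a log2 change of -0.06 (adjusted p = 0.187). It was called higher under total scaling (0.13, adjusted p = 0.00196) and lower with DESeq2 size factors (-0.12, adjusted p = 0.00692), by DESeq2 (-0.12, adjusted p = 0.00954) and without siNsun2 replicate 2 (-0.09, adjusted p = 0.0458). C230088H06Rik, a locus of 474 kb beside the zinc finger gene Zfp982, was the exception in direction. It was at 46.9, 52.1 and 51.9 CPM in siControl and 68.6, 73.2 and 67.3 CPM in siNsun2, a rise of 0.47 (SE 0.04, adjusted p = 5.16e-17). It stood at 3.86 times the olfactory receptor rate in siControl and 3.57 in siNsun2, and 5 genes overlap it on its own strand.

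The 6 largest increases among called ncRNAs with a mean of at least 100 counts, no overlap on their strand and groups of libraries that did not overlap were from 1.04 to 1.36 on the log2 scale. Gm11571, beside the hair keratin gene Krt31, was at 0.845, 1.47 and 1.15 CPM in siControl and 3.06, 3.44 and 2.35 CPM in siNsun2 (log2 change 1.36, SE 0.22, adjusted p = 1.35e-07). Gm26633, whose first exon is shown above and whose partner Acan encodes the cartilage proteoglycan aggrecan, was at 0.909, 1.35 and 1.33 CPM and then 2.34, 3.24 and 3.02 CPM (1.26, SE 0.22, adjusted p = 5.74e-07). Gm16675, beside the interferon regulatory factor gene Irf2, was at 2.11, 3.00 and 2.49 CPM and then 4.96, 5.35 and 6.44 CPM (1.14, SE 0.16, adjusted p = 1.14e-09). That every siNsun2 library lay above every siControl library was required by the rule that chose them. 4921529L05Rik beside Cpvl, Rbm46os beside the germ cell RNA-binding protein gene Rbm46, and Gm15518 beside the cell surface gene Cd47 rose by 1.10, 1.08 and 1.04. In siControl the 6 ncRNAs stood at 0.736 to 1.29 times the olfactory receptor rate, and in siNsun2 at 1.04 to 2.11 times.

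The 6 largest decreases under the same rule were from -0.72 to -0.37. 2810030D12Rik was at 7.26, 8.204 and 7.28 CPM in siControl and 4.75, 4.53 and 4.48 CPM in siNsun2 (log2 change -0.72, SE 0.12, adjusted p = 4.82e-07). Its partner Grtp1 fell by 0.48 (adjusted p = 6.47e-20). 4930558J18Rik, beside 1700066M21Rik and the third of the sequences shown, was at 12.03, 11.3 and 12.2 CPM and then 9.42, 7.61 and 7.39 CPM (-0.54, SE 0.10, adjusted p = 2.75e-06), and its partner fell by 0.53. Here too the rule required that the groups did not overlap. Gm2093 (-0.62, adjusted p = 0.0152), Gm15612 beside Abtb1 (-0.48, adjusted p = 0.0248), Gm26641 beside the junctional adhesion gene F11r (-0.45, adjusted p = 0.000749) and Gm14963 beside the endocytic recycling gene Ehd1 (-0.37, adjusted p = 0.0114) also fell. Of these, Gm2093 was not called without siControl replicate 1 or without siNsun2 replicate 1 (adjusted p = 0.0849 and 0.0603), Gm14963 not without siControl replicate 2 (0.0725), and Gm15612 was called only with all 6 libraries or without siControl replicate 1 or siNsun2 replicate 3. Under total scaling the calls of Gm2093, Gm15612, Gm26641 and Gm14963 were lost, at log2 changes of -0.44, -0.30, -0.27 and -0.19. In siControl 5 of the 6 stood at 20.3 to 39.4 times the olfactory receptor rate, and Gm2093 at 3.98 times.

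**Figure D3:**
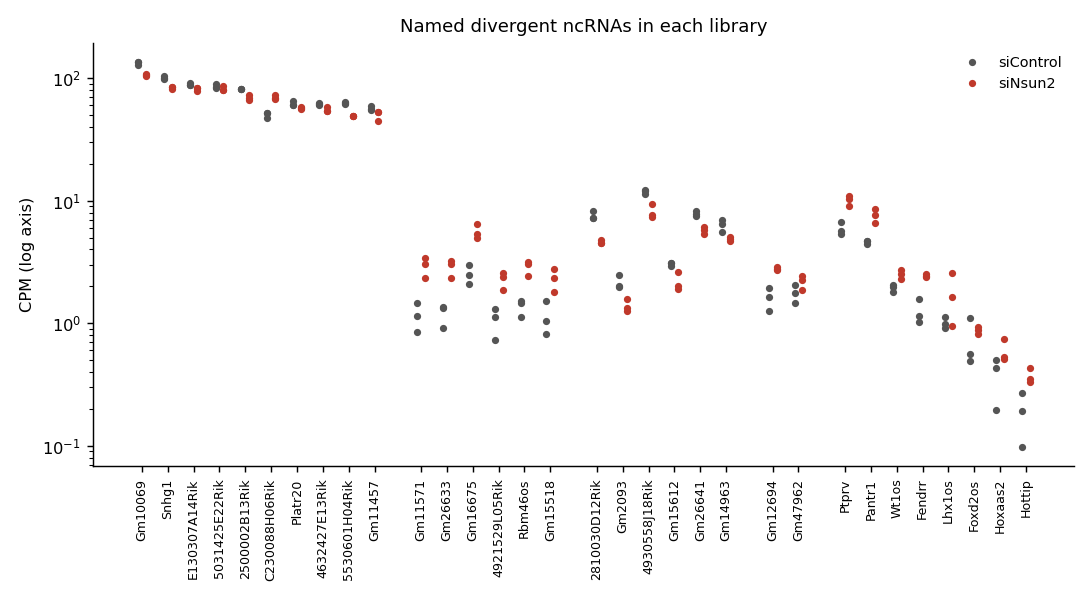
CPM in each library (log axis) of the 32 divergent ncRNAs named by the rule, with siControl in grey and siNsun2 in red, from left to right the 10 most abundant, the 6 largest increases, the 6 largest decreases, 2 further rises against the partner and 8 further known names. Points of the most abundant ncRNAs lie close together within a group, as for Gm10069 at 129 to 135 CPM in siControl, and spread widely below 1 CPM.

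At 10 times the olfactory receptor rate or more the 5 ncRNAs called higher were looked at after their values were seen. Gm11520, beside the histone acetyltransferase gene Kat7, was at 17.7, 16.1 and 17.1 CPM in siControl and 18.9, 21.05 and 23.8 CPM in siNsun2 (log2 change 0.33, SE 0.07, adjusted p = 9.43e-05), while Kat7 fell by 0.12. 2610035F20Rik rose by 0.79 (adjusted p = 0.000835) beside Zic2, a zinc finger factor of the developing brain, which rose by 0.82. Gm11423, beside the DNA ligase gene Lig3, rose by 0.64 (adjusted p = 0.0366), 5033417F24Rik, beside Rnpepl1, by 0.84 (adjusted p = 0.0228) and F630040K05Rik, beside 1600014C23Rik, by 0.18 (adjusted p = 0.0256). The groups of libraries overlapped for 5033417F24Rik and F630040K05Rik. Only Gm11520 and Gm11423 were at 10 times or more in every library. The 2 ncRNAs that fell by at least 2-fold, Gm15850 beside Kif21b (-1.27) and Gm9889 beside S1pr1 (-1.69), had means of 46.5 and 18.7 counts. The groups of libraries overlapped for Gm9889. Of 604 tested ncRNAs 37 rose by at least 2-fold. Among all 27603 genes 2249 rose and 64 fell by as much at the same threshold.

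Each ncRNA was next compared directly with its partner, which sets the change of the ncRNA against that of a gene in the same library and stretch of DNA. Of 563 pairs in which both could be tested, the ncRNA rose against its partner in 75 and dropped in 1 (adjusted p under 0.05 over 1533 head-to-head gene pairs of any kind), 13.5% of the pairs against 12.7% called in either direction among all 1533. Without siControl replicate 1 the 75 became 45, and without siControl replicate 3 they became 43; limma on the log2 ratio called 47. The single drop, Gm36995 against the calcium channel gene Cacna1f, named after its value was seen, was -1.37 (SE 0.25, adjusted p = 0.00963), with Cacna1f at 0.627 and 1.27 CPM. An unadjusted p under 0.05 was found for 153 rises and 14 drops. The median log2 change of the ratio was 0.25. In 496 of the 563 pairs the ncRNA was the gene with fewer counts. Over all 563 pairs the gene with fewer counts rose against the other in 74.4%. The same held for 63.8% of 785 pairs of protein-coding genes, where 108 (13.8%) were called. With at least 100 counts on average in both genes, 41 of 207 ncRNAs rose against their partner, and the partner of the pair that dropped was below that depth. Among the 85 tested pairs whose ncRNA was at 10 times the olfactory receptor rate or more in every library, 5 rose and 0 dropped by edgeR, with 0 drops by limma and 4 at an unadjusted p under 0.05.

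The calls of ncRNA and partner were also set side by side. Both were higher in 37 pairs and both lower in 23, the ncRNA was higher with its partner lower in 36, and the reverse was found in 2, Crnde with Irx5 and Gm36995 with Cacna1f, whose ncRNAs are each overlapped by another gene on their strand. In 228 pairs the partner was lower and the ncRNA not called. Taken singly, 22.0% of tested ncRNAs were higher and 5.30% lower, and 16.6% of tested partners were higher and 51.0% lower. Whether the calls within a pair were linked was not tested. The log2 changes of ncRNA and partner had a Spearman's rho of 0.33 and a Pearson's r of 0.35 over 563 pairs, given as a description since both genes of a pair share libraries and scaling.

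Among pairs with a mean of at least 100 counts for both genes and no overlap on either strand, 17 rises were called, and the 4 largest were Gm26633 against Acan (1.17), Gm12694 against Mysm1 (1.11), Gm47962 against Nuak1 (0.93) and Gm16675 against Irf2 (0.92). Gm12694, the last of the sequences shown, was at 1.63, 1.25 and 1.93 CPM in siControl and 2.71, 2.75 and 2.89 CPM in siNsun2, a rise of 0.79 (SE 0.20, adjusted p = 0.000658). Mysm1, which encodes a histone H2A deubiquitinase, fell from 138 to 111 CPM (-0.31, adjusted p = 4e-15). The pair therefore moved apart, by 1.11 (SE 0.15, adjusted p = 0.00285), with Gm12694 at 1.18 times the olfactory receptor rate in siControl. Gm47962 was at 1.47, 1.77 and 2.06 CPM and then 1.85, 2.26 and 2.42 CPM, which was no call (0.30, adjusted p = 0.236), and the ratio change rested on the kinase gene Nuak1, which fell by 0.63. No drop met this rule.

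**Figure D4:**
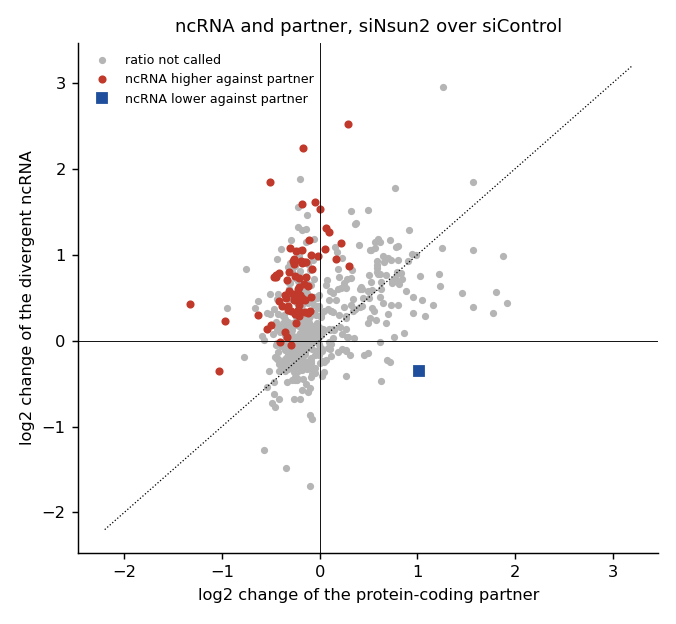
Log2 change of the divergent ncRNA against that of its protein-coding partner in 563 pairs, with pairs whose ratio was called in red (ncRNA higher, 75) and blue (ncRNA lower, 1) and a dotted line where both changes are equal. Most red points lie left of 0 for the partner and above 0 for the ncRNA.

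The members were also grouped by the role of the partner. Of 29 ncRNAs beside developmental transcription factor genes, 14 were higher and 1 lower, with a median log2 change of 0.61, and 18 of the 29 stood at under 3 times the olfactory receptor rate, a range in which 48.6% of all genes were higher with a median of 0.69. Of 23 tested partners 9 were higher and 4 lower, with a median of 0.49. Of all tested partners 16.6% were higher and 51.0% lower. Of the 97 tested partners under 3 times the olfactory receptor rate, 60.8% were higher, with a median of 0.62. Pantr1, beside the neural POU factor gene Pou3f3, was at 4.72, 4.70 and 4.39 CPM in siControl and 6.63, 8.53 and 7.67 CPM in siNsun2 (log2 change 0.72, SE 0.12, adjusted p = 6.27e-07). Fendrr, an lncRNA of the embryonic mesoderm beside the forkhead gene Foxf1, was at 1.56, 1.15 and 1.03 CPM and then 2.53, 2.41 and 2.40 CPM (0.97, SE 0.22, adjusted p = 0.000133). The groups did not overlap for either. Pantr1 and Fendrr stood at 1.61 and 1.63 times the olfactory receptor rate in siControl. Pou3f3 and Foxf1 were listed at 0 in every library, and each is overlapped by a gene on its own strand. BC006965 beside Sox9 rose by 0.57 and 1700018A04Rik beside Foxf2 by 0.98. In siControl these 2 ncRNAs stood at 2.28 and 1.01 times the olfactory receptor rate. Sox9 and Foxf2 rose too (1.80, adjusted p = 0.0206, and 1.88, adjusted p = 0.00120).

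Lhx1os, beside the LIM homeobox gene Lhx1, was at 0.909, 0.977 and 1.11 CPM in siControl and 2.55, 1.62 and 0.954 CPM in siNsun2, so that the groups overlapped although the test called it (0.77, adjusted p = 0.0127). It was not called without siNsun2 replicate 1 (0.36, adjusted p = 0.374). The HOX cluster RNAs Hottip and Hoxaas2 had log2 changes of 0.99 (SE 0.59) and 0.66 (SE 0.44) and Foxd2os 0.29 (SE 0.34), none of them a call at 17.3, 30.2 and 49.0 counts on average. Haglr, beside Hoxd1, rose by 0.81 (adjusted p = 0.0290). Wt1os, beside the zinc finger gene Wt1, had 0.38 (adjusted p = 0.106) and was called under total scaling (0.56, adjusted p = 0.0167), and Wt1 rose by 0.53. Crnde was the ncRNA that fell, from 17.3 ± 0.722 to 14.6 ± 0.361 CPM (-0.25, adjusted p = 0.00468), beside Irx5, which rose by 0.72. In siControl 24 of the 29 were under 10 times the olfactory receptor rate. Ptprv, beside the phosphatase gene Ptpn7 and outside these groups, rose from 5.34, 6.72 and 5.64 to 9.04, 10.8 and 10.3 CPM (0.77, adjusted p = 5.81e-09).

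In the other groups more partners were lower than higher, and most ncRNAs were not called. For the counts that follow, here and in the next paragraph, 24.3% of all genes, 56.2% of all genes at 10 times the olfactory receptor rate or more and 51.0% of all tested partners were called lower. Called higher were 25.8% of all genes, 22.0% of all tested ncRNAs and 16.6% of all tested partners. Beside genes of DNA replication, repair and the cell cycle, 15 of 16 partners were lower and 1 higher (median -0.28), while 4 of 16 ncRNAs were higher and 2 lower (median -0.02). AV099323 fell by 0.36 (adjusted p = 0.00363) beside the replication clamp gene Pcna, which fell by 0.42. Gm26799, beside the ubiquitin ligase gene Rad18, rose by 1.08 (adjusted p = 0.00124) where Rad18 fell by 0.30. 4930540M05Rik, beside the recombination gene Rad52, rose by 1.59 (adjusted p = 0.00116) where Rad52 fell by 0.18. In siControl these 2 ncRNAs stood at 3.11 and 1.46 times the olfactory receptor rate. Of all genes under 3 times that rate, 48.6% were called higher, with a median of 0.69. Between 3 and 10 times, 20.4% were, with a median of 0.15. Beside chromatin regulator genes 9 of 12 tested partners were lower and 0 higher by edgeR, 0 higher also by DESeq2 and at an unadjusted p under 0.05. Of the 13 ncRNAs there 1 was higher and 1 lower (median -0.01). Gt(ROSA)26Sor, the RNA of the Rosa26 locus used for transgenes, lies 32 bases from the SET-domain gene Setd5 and fell from 32.7 ± 1.58 to 28.3 ± 1.45 CPM (-0.21, adjusted p = 0.00122).

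Beside genes of RNA processing and translation, 5 of 26 ncRNAs were higher and 0 lower by edgeR (median 0.17; 0 lower at an unadjusted p under 0.05 and 1 by DESeq2), against 2 higher and 12 lower of 24 tested partners (median -0.19). 9230114K14Rik rose from 15.1 ± 0.592 to 21.2 ± 1.72 CPM (0.49, adjusted p = 1.46e-08) beside the splicing helicase gene Dhx15, which fell by 0.25; both are overlapped by a gene on their strand. Beside genes of ubiquitin transfer and membrane traffic, 8 of 34 tested ncRNAs were higher and 3 lower (median 0.20), and 20 of 33 tested partners were lower and 0 higher by edgeR (median -0.22; 0 higher also by DESeq2 and at an unadjusted p under 0.05). These groups were cut from gene symbols, and a difference between them was not tested.

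**Figure D5:**
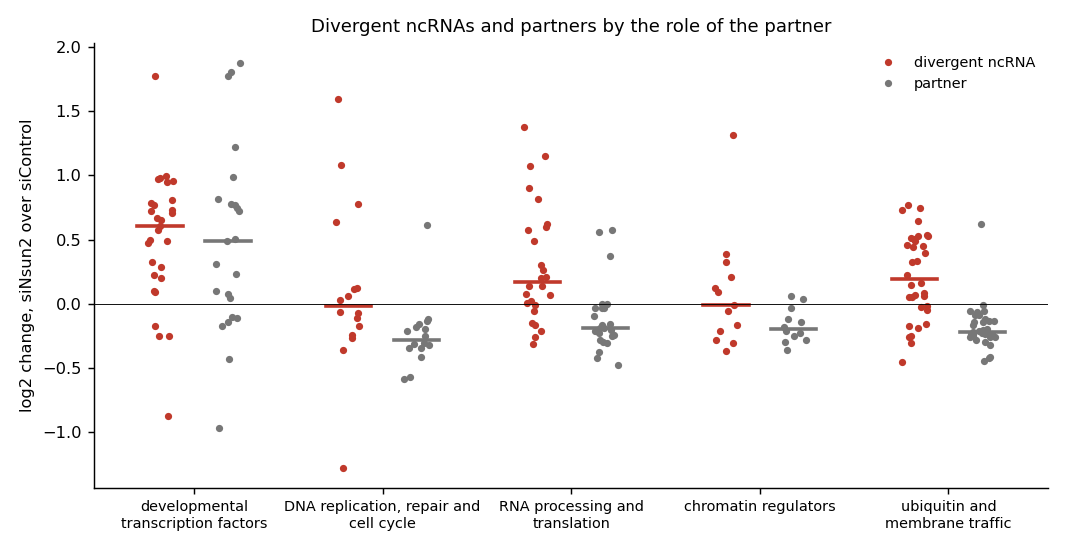
Log2 change in siNsun2 over siControl of divergent ncRNAs (red) and their tested partners (grey) in 5 groups by the role of the partner, with 1 point per gene and a bar at the median. Medians of the ncRNAs were 0.61, -0.02, 0.17, -0.01 and 0.20 and those of the partners 0.49, -0.28, -0.19, -0.20 and -0.22, in the order of the axis: developmental transcription factors, DNA replication and cell cycle, RNA processing, chromatin, ubiquitin and membrane traffic.

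Distance and annotation class were described in the same way. For the counts that follow, 25.8% of all genes were called higher and 24.3% lower, and 22.0% and 5.30% of all tested members. The part of the level over silent DNA in differences between these classes was not tested. The median log2 change was 0.27 at gaps up to 100 bases, 0.21 from 101 to 200, 0.17 from 201 to 500, 0.19 from 501 to 1000 and 0.59 in the 55 ncRNAs from 1001 to 2000 bases away, 18 of which were higher and 3 lower. Over all pairs the gap and the change had a Spearman's rho of 0.03. Of the annotation classes, lincRNAs had a median of 0.33 (53 of 221 higher), antisense RNAs 0.27 (40 of 175), processed transcripts 0.17 (31 of 123) and bidirectional promoter lncRNAs 0.13 (9 of 85). A further 661 lncRNAs whose head overlaps that of a coding gene had a median of 0.34, with 177 of 656 tested called higher and 30 lower. Members with a CpG-rich start had a median of 0.10 (33 of 205 higher, 10 lower) and those without 0.34 (100 of 397 higher, 22 lower). With CNGGG in the first 200 bases the median was 0.27 (101 of 448 higher, 21 lower) and without it 0.26 (32 of 154 higher, 11 lower).

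Genes for the machinery that ends and degrades promoter upstream transcripts were taken as a list of their own. Of 58 genes in the tables, 2 of them at 0 in all libraries, 43 were lower in siNsun2 caRNA and 1 higher, with a median log2 change of -0.19, against 24.3% of all genes called lower and 70.5% of genes at 16 CPM or more. Of 12 tested nuclear exosome genes 6 were lower and 0 higher by edgeR, 0 also by DESeq2 and at an unadjusted p under 0.05. Among them was the nuclease gene Dis3 (106 ± 4.08 to 89.3 ± 1.81 CPM, -0.24), whereas the log2 change of the nuclease gene Exosc10 was -0.01 (adjusted p = 0.850). The helicase gene Mtrex, shared by the exosome adaptors NEXT and PAXT, fell from 384 ± 8.58 to 333 ± 1.85 CPM (-0.20), and 4 of 6 tested adaptor genes were lower. Of 14 Integrator genes 12 were lower and Ints6 was higher (0.08, adjusted p = 0.00919), 16 of 17 cleavage and polyadenylation genes were lower, and so were 2 of 3 U1 snRNP protein genes and 3 of 4 cap-binding genes. These values are chromatin-associated RNA of the genes and not protein.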

How the data were processed

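caRNA of mESC was compared between 3 siControl and 3 siNsun2 libraries, grouped by the sample labels. Per the study's methods the authors prepared stranded total RNA libraries after rRNA removal, trimmed reads with Trimmomatic 0.39, aligned them with HISAT2 2.2.1 to mm10 and counted annotated genes with HTSeq 0.12.4. For caRNAs the methods name featureCounts, whereas the files close with the tally rows typical of HTSeq, so which tool made them is not settled. The authors deposited raw counts of reads for each gene and library, unscaled and unpooled. Genes nested in another gene of their own strand were empty in 6443 of 6457 cases, against 951 of 6783 nested in a gene of the other strand. The counting was therefore taken as strand-aware and over gene spans, introns included, with reads shared by genes set aside. Reads outside genes were kept out of library sizes. ERCC spike-in lines numbered 0, so every change is relative to the other genes.

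Gene positions came from GENCODE M21 (GRCm38, that is mm10), to which 54409 of 54446 identifiers (99.93%) matched without versions. The nearest partner was used for the 5 members with 2 or more. The members and gene lists were chosen with earlier results of these data known. Genes were tested with the quasi-likelihood method of edgeR (edgeR 4.0.16, R 4.3.3; TMM scaling, filterByExpr, two-sided, Benjamini-Hochberg adjustment over 27603 genes, called at an adjusted p under 0.05), and every adjusted p is from it unless another tool is named. CPM used the TMM-scaled library sizes and is given as mean ± SD (n = 3). The change of an ncRNA against its partner was the interaction of gene and siRNA in an edgeR fit over 1533 head-to-head pairs with the library as a block. Shares and summed ratios were compared by two-sided exact permutation tests. The level of silent DNA was the mean count per kb of gene span of 1074 olfactory receptor genes.

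Named were the 10 ncRNAs of highest mean CPM. Among called ones with no overlap on their strand, a mean of at least 100 counts and groups that did not overlap, the 6 largest increases and 6 largest decreases were named. Of called pairs with a mean of at least 100 counts for both genes and no such overlap, the 4 largest rises and drops were named, and 9 ncRNAs came from a list of 73 known names. Members of the partner and machinery lists are given as examples. Sequences came from the GENCODE M21 transcripts. On simulated counts for this comparison 63.4% of genes changed 2-fold and 46.9% of those changed 1.5-fold were recovered (27603 genes), and 64% and 42% of pairs (1533 pairs). Only 200 genes or pairs were changed there, whereas 13844 genes were called in the data. The shares recovered therefore need not hold for the data. Alternatives were other scalings, count filters, DESeq2 1.42.0, limma 3.58.1, a replicate block, each library left out and other ways to choose members.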

Additional observations from a re-analysis of the deposited data

Results flagged for a closer look

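1500015A07Rik, beside the mitochondrial co-chaperone gene Grpel2, stood out in the mESC library labelled Pscp1 WT, which enters no comparison. It was at 14.6 CPM of total gene counts there (1339 counts), against 2.22 ± 0.177 CPM (SD, n = 3) in siControl with a highest library of 2.42 CPM. It was the only member with at least 100 counts in that library and at least 4 times the highest siControl library. The difference rests on 1 library of another experiment and was not tested. Over the 607 ncRNAs the levels in that library and in siControl had a Spearman's rho of 0.80, a description across genes, and 210 ncRNAs were below a 4-fold lower level there. Its olfactory receptor rate was 0.00593 CPM of all read records per kb and its share of records outside genes 10.7%.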

How the results depend on the processing

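The number of divergent ncRNAs called higher, 133, was 96 to 119 with each library left out, and the number called lower, 32, was 27 to 32. With scaling to total gene counts 185 were higher and 7 lower, against 37.1% and 9.40% of all genes. At least 2-fold changes numbered 37 higher and 2 lower among 604 tested ncRNAs, against 2249 and 64 among all 27603 genes. The median log2 change, 0.27, was 0.21 with DESeq2 size factors, 0.21 with DESeq2, 0.44 with scaling to total gene counts, 0.22 to 0.27 with each library left out, 0.21 with 5′ ends within 500 bases, 0.21 within 1000 bases and 0.12 at a mean of at least 100 counts, where 79 were higher. Chosen after seeing the data, the 87 ncRNAs at 10 times the olfactory receptor rate or more in all 6 libraries turned the median to -0.13, with 2 called higher, 24 lower, 5 higher against the partner and 0 lower. With overlapping heads added, 310 of 1260 tested ncRNAs were higher and 62 lower, against 25.8% and 24.3% of all genes. Of 1185 pairs then tested, the ncRNA was higher against the partner in 141 and lower in 7, beside 75 and 1 of 563. Rises against the partner, 75, became 47 by limma on the log2 ratio, 31 at 2-fold, 41 at a mean of at least 100 counts and 43 to 61 with each library left out. Drops against the partner, 1, became 3 by limma, 2 with 10 counts in all libraries, 1 to 2 with each library left out, and 0 with 5′ ends within 500 or 1000 bases or without overlap on the same strand. Under scaling to total gene counts the log2 changes of 5031425E22Rik, 4632427E13Rik, Gm11457, Platr20 and E130307A14Rik turned to 0.13, 0.026, 0.0050, 0.052 and 0.053. Where these values moved, the cause was not tested, beyond the fewer members or stricter fold that some alternatives use by construction.

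The summed share and the summed ratio kept their direction in every alternative, at 0.00162 to 0.0839 percentage points and 0.07 to 0.31, and leaving out a library moved them to 0.0352 to 0.0389 and 0.24 to 0.26. Of the single ncRNAs named, 358 of the values under alternatives kept direction and call, 16 lost the call, 4 gained it and 5 changed sign. Same-numbered libraries did not deviate together (correlations -0.0015, 0.030 and -0.0012). These correlations cannot show whether such libraries were cultured or prepared together. With the replicate block 133 were higher and 33 lower, and limma on the ratio with the block called 25 rises and 2 drops. Depth limited single ncRNAs: at means below 100 counts the libraries of a group varied by a median of 28.7% in siControl.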
